A study of Mus musculus with 8 samples.

Results

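The collagen gene family was described across ChIP-seq island lists of cultured mouse stromal cells. Members were the protein-coding autosomal RefSeq genes of mm10 whose whole symbol has the form Col, a type number, a and a chain number. This rule found 42 of 20661 autosomal protein-coding genes, and it used no measured value. Of these, 11 code for fibrillar collagens, 6 for basement membrane collagens (collagen IV, XV and XVIII) and 25 for other collagens. The 2 collagen genes of the X chromosome, Col4a5 and Col4a6, are outside the rule.

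Collagens are extracellular proteins of 3 chains wound into a triple helix. Fibrillar collagens assemble into the banded fibrils that give bone, tendon, skin and cartilage their strength, and collagen IV forms the sheet-like network of basement membranes. FACIT collagens decorate the surface of fibrils, beaded filament collagens (type VI) form microfibrils, network-forming collagens (types VIII and X) build lattices, and transmembrane collagens stay anchored in the cell surface. Bone marrow stromal cells and the osteoblasts they can form are known for abundant type I collagen, while types II, IX, X and XI belong to cartilage. H3K4me3 (histone H3 trimethylated at lysine 4) marks the starts of active or poised genes, H3K4me2 covers starts and many distal regulatory sites, and H3K27me3 is the repressive mark written by Polycomb repressive complex 2. ASXL1 is a chromatin regulator that partners the deubiquitinase BAP1.

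The study asked where ASXL1 binds in wild-type cells and how the 3 histone marks differ without Asxl1. The cells were bone marrow mesenchymal stem/progenitor cells (MSPCs) of C57BL/6 background at passages 5 to 10, grown in a mesenchymal culture medium. Of 8 libraries, 7 have a list of islands, which are stretches of DNA where the caller found reads enriched: ASXL1 in wild type, and H3K4me2, H3K4me3 and H3K27me3 each in wild type and in Asxl1-/-. The input library has no list and was not analysed here. Every group is 1 library: the differences described have no replicate check, and none was tested. The lists give positions without read counts, so depth is unknown, and fewer cells carrying a mark cannot be told apart from less mark in each cell. The labels do not say how Asxl1 was deleted, how many mice gave the cells or whether cells were pooled.

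Over the autosomes, the 7 lists held 14792 to 35291 islands covering 66.88 to 217.2 Mb. H3K4me3 islands were wider in Asxl1-/-, with a median width of 4200 bp against 3400 bp in wild type. The length covered in Asxl1-/- relative to wild type differed by chromosome: it was lowest on chromosome 3 (0.532 for H3K4me2, 0.7 for H3K4me3 and 0.222 for H3K27me3) and highest on chromosome 10 (1.35, 1.45 and 2.09). Of 10 stromal marker genes, 9 had H3K4me3 at a gene end in both genotypes, among them the genes for PDGF receptors, against 1 of 5 blood markers and 1 of 4 endothelial markers. Of 4 epithelial markers, 2 had H3K4me3 in wild type and 1 in Asxl1-/-. All 4 chondrocyte markers had H3K4me3 in wild type and 2 in Asxl1-/-, where Acan and Hapln1 had none. Of 4 osteoblast markers, 2 had it in both genotypes. The part of these differences between chromosomes and libraries in the results below was not tested.

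Promoter sequences were available from RefSeq (GRCm38.p6, the coordinates of mm10) for 33 of the 42 genes. Col1a1, Col2a1, Col4a3, Col5a2, Col9a3, Col12a1, Col14a1, Col22a1 and Col26a1 were not in that table. The stretches shown here are bases before the annotated start that lie outside the annotated gene, 5′ to 3′ on the strand of the gene. Capitals mark the TATA motif TATAAA, the CCAAT box and the GC box GGGCGG, found on either strand. The first pair shows how unlike the promoters of abundant fibrillar collagens are. Col1a2 (chr6:4505368-4505617) holds 11 CpG dinucleotides and Col3a1 (chr1:45311288-45311537) none. This pair was chosen after values had been seen.

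Col1a2: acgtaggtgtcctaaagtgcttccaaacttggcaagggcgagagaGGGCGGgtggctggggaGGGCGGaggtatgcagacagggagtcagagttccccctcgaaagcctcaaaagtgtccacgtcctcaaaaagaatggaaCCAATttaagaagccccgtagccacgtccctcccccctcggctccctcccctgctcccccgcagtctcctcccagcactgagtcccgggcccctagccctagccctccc

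Col3a1: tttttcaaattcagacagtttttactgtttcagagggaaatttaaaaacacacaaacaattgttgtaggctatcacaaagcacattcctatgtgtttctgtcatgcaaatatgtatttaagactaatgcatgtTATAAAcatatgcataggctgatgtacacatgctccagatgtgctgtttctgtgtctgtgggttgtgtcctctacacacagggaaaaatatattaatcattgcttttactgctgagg

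The next set belongs to some of the genes whose start had an H3K4me3 island in 1 genotype and no such island in the other. Col11a1 (chr3:114030290-114030478), Col24a1 (chr3:145292222-145292471) and Col8a2 (chr4:126286544-126286793) had the island in wild type. Col9a2 (chr4:121039316-121039565) had it in Asxl1-/-. Col8a2 holds 24 CpG dinucleotides in these bases and Col24a1 holds 3.

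Col11a1: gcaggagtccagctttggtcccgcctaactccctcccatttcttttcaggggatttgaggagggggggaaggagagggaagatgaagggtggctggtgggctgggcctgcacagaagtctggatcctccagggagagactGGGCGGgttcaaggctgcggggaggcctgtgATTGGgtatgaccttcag

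Col24a1: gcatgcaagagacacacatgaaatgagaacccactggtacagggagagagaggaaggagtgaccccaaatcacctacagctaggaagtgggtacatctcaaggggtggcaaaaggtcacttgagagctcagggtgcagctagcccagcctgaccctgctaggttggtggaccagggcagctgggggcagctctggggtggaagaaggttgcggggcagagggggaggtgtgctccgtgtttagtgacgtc

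Col8a2: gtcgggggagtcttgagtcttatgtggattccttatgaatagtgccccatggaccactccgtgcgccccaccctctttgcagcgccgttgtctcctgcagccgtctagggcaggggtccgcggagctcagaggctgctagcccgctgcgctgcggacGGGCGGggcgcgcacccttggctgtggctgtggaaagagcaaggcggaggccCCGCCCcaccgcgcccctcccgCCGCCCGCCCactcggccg

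Col9a2: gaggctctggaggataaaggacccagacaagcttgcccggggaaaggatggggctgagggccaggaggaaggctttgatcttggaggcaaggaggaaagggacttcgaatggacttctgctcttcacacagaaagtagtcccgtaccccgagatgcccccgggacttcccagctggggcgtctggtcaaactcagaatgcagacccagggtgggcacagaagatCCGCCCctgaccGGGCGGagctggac

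A gene was called marked when an island came within 1000 bp of the low or high end of its annotated span. H3K4me2 was the most widespread mark of the family and was present at 32 of 42 genes in wild type and 34 in Asxl1-/-. H3K27me3 was present at 22 genes in wild type (52.4%) and 19 in Asxl1-/- (45.2%), about as many as carried H3K4me3 (23 and 22) or ASXL1 (19). Over all 20661 genes the shares were 64.7% and 65.7% for H3K4me2, 59.8% and 59.6% for H3K4me3, 27.4% and 24.4% for H3K27me3, and 51.4% for ASXL1. Relative to these, the collagen genes were marked by H3K27me3 more often and by H3K4me3 (54.8% and 52.4%) and ASXL1 (45.2%) somewhat less often. Collagen genes are long, with a median of 110 kb against 17.5 kb for all genes. Col22a1, Col17a1 and Col28a1 had no island at an end in any library.

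**Figure D1:**
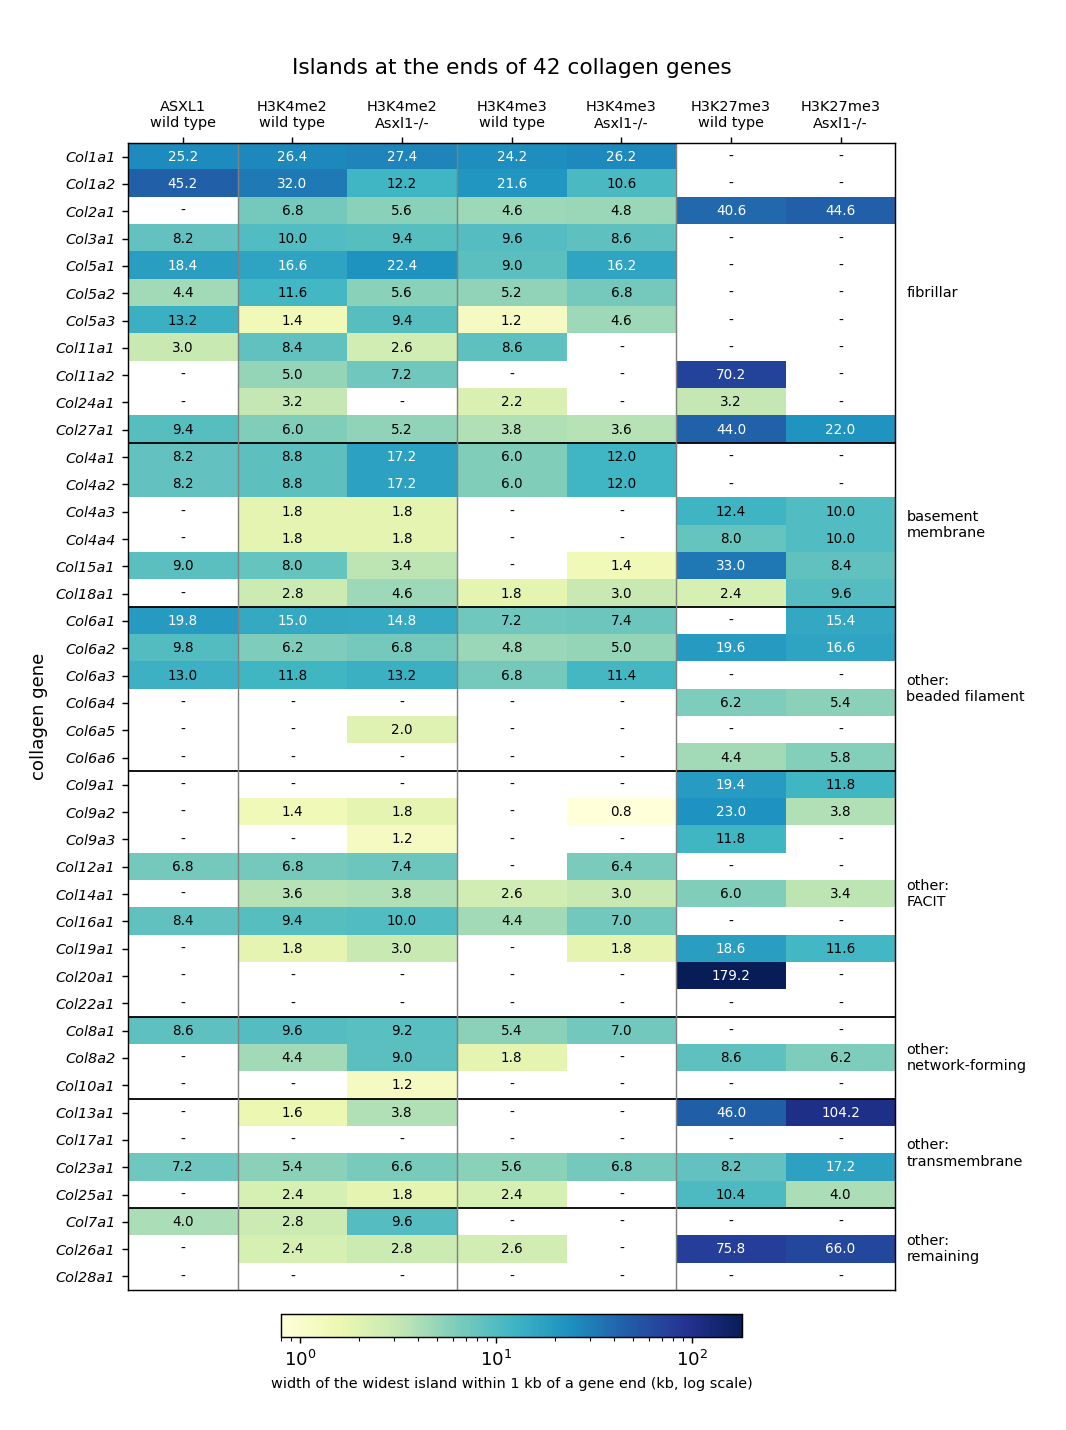
Width in kb of the widest island within 1 kb of either end of each collagen gene (rows) in each of the 7 libraries (columns); colour follows the width on a log scale and a dash means no island. The widest island can lie at different ends in the genotypes, as H3K27me3 does at Col4a3. Many fibrillar genes have wide H3K4me2, H3K4me3 and ASXL1 islands, as do Col6a1, Col6a2 and Col6a3. H3K27me3 islands occur in every class, in wild type at 4 of 11 fibrillar, 4 of 6 basement membrane and 14 of 25 other genes.

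Of the 3 classes, the fibrillar genes most often had H3K4me3 and ASXL1. In wild type all 11 had H3K4me2, 10 had H3K4me3 and 8 had ASXL1, while 4 had H3K27me3. In Asxl1-/- the counts were 10 for H3K4me2, 8 for H3K4me3 and 2 for H3K27me3. No island of H3K27me3 lay at the genes of types I, III and V in either genotype.

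Col1a1 and Col1a2 code for the chains of type I collagen, the main protein of bone matrix. At Col1a1 (chr11:94936224-94953042) the widest island was 25.2 kb for ASXL1, 26.4 kb in wild type against 27.4 kb in Asxl1-/- for H3K4me2, and 24.2 kb and 26.2 kb for H3K4me3. The gene itself is 16.8 kb long, so each of these islands is longer than the gene. At Col1a2 (chr6:4505618-4541543), 1 ASXL1 island of 45.2 kb spanned the whole gene. Its H3K4me2 island at the start was 32.0 kb wide in wild type against 12.2 kb in Asxl1-/-, and its H3K4me3 island was 21.6 kb and 10.6 kb. In Asxl1-/- H3K4me2 was called as separate islands, which together still covered 85.6% of that wild-type island. They covered none of a second wild-type island, of 8.2 kb. For H3K4me3, islands of Asxl1-/- covered 49.1% of the wild-type island. The share of the Col1a2 body inside islands was 98.5% and 63.4% for H3K4me2 and 51.7% and 17.2% for H3K4me3. The paired chains thus differed: the marks at Col1a1 were about as wide in both genotypes. Those at Col1a2 covered less of the gene in Asxl1-/-, and the split into pieces adds to the difference in H3K4me2 width. Within 5 Mb on each side of Col1a2, covered length in Asxl1-/- relative to wild type was 0.91 for H3K4me2 and 0.963 for H3K4me3.

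Col3a1, whose product forms fine fibrils in skin and vessels, had an ASXL1 island of 8.2 kb. Its H3K4me2 was 10.0 kb in wild type against 9.4 kb in Asxl1-/-, and its H3K4me3 was 9.6 kb and 8.6 kb. Col5a1, Col5a2 and Col5a3 code for type V collagen, which starts and thins type I fibrils. Col5a1 had H3K4me3 of 9.0 kb in wild type against 16.2 kb in Asxl1-/-, H3K4me2 of 16.6 kb and 22.4 kb, and ASXL1 of 18.4 kb. Col5a3 had the narrowest wild-type islands of the 3, 1.2 kb for H3K4me3 and 1.4 kb for H3K4me2, under an ASXL1 island of 13.2 kb. In Asxl1-/- these were 4.6 kb and 9.4 kb. At Col5a2 H3K4me2 was narrower in Asxl1-/- (11.6 kb and 5.6 kb) and H3K4me3 wider (5.2 kb and 6.8 kb), beside an ASXL1 island of 4.4 kb.

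Col11a1 codes for a chain of type XI collagen, which nucleates cartilage fibrils. Its H3K4me3 island of 8.6 kb (chr3:114029001-114037600) was called in wild type only. The H3K4me2 island there was 8.4 kb in wild type against 2.6 kb in Asxl1-/-, and ASXL1, with an island of 3.0 kb at the end, covered 6.4 kb of the lost H3K4me3 island in all. Among the 5 members that lost H3K4me3, only Col11a1 had ASXL1 at an end, and no H3K27me3 was listed there. Within 5 Mb on each side of it, covered length in Asxl1-/- relative to wild type was 0.419 for H3K4me2 and 0.588 for H3K4me3. The loss at Col11a1 and the lower cover around it cannot be told apart.

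Col24a1, a minor fibrillar collagen gene of chromosome 3, was the only member to lose all 3 marks. In wild type its start lay under H3K4me2 of 3.2 kb, H3K4me3 of 2.2 kb (chr3:145292201-145294400) and H3K27me3 of 3.2 kb. No island of any mark overlapped these positions in Asxl1-/-, and no ASXL1 island lay at either end. The 5 Mb flanks of Col24a1 gave 0.43, 0.566 and 0.125 for H3K4me2, H3K4me3 and H3K27me3.

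Col11a2 codes for another type XI chain. In wild type a single H3K27me3 domain of 70.2 kb (chr17:34036401-34106600) covered the whole gene, and in Asxl1-/- none of the gene was covered. Islands of Asxl1-/- still covered 27.6% of that domain outside the gene. The low end of Col11a2, which holds its start, lies 516 bp from Rxrb, and H3K4me2 there was 5.0 kb in wild type against 7.2 kb in Asxl1-/-, which may belong to either gene. No H3K4me3 was called at Col11a2 in either genotype.

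Col2a1 and Col27a1, a cartilage fibril gene and a minor fibrillar gene, had H3K4me3 together with H3K27me3 in both genotypes. H3K27me3 at Col2a1 was 40.6 kb in wild type against 44.6 kb in Asxl1-/-, and H3K4me3 was 4.6 kb and 4.8 kb. The share of Col2a1 under H3K27me3 was 58.1% in wild type and 100% in Asxl1-/-. At Col27a1, H3K27me3 was 44.0 kb and 22.0 kb, H3K4me3 3.8 kb and 3.6 kb, H3K4me2 6.0 kb and 5.2 kb, and ASXL1 9.4 kb. H3K4me3 in the pair was thus of similar width in both genotypes under H3K27me3 domains that differed.

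Among the 6 basement membrane genes, all had H3K4me2 in both genotypes. H3K4me3 lay at 3 of them in wild type and 4 in Asxl1-/-, H3K27me3 at 4 in both, and ASXL1 at 3. The collagen IV genes fell into 2 head-to-head pairs with opposite marks.

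Col4a1 and Col4a2 code for the chains of collagen IV that nearly all basement membranes hold. Their annotated ends overlap by 84 bp on chromosome 8, so the pair shares its start islands and counts 2 times in every tally of gene ends. The shared ASXL1 island was 8.2 kb wide (chr8:11307801-11316000). H3K4me2 over it was 8.8 kb in wild type against 17.2 kb in Asxl1-/-, and H3K4me3 was 6.0 kb and 12 kb. No H3K27me3 was listed over either gene in either genotype. H3K4me2 covered 12.3% of Col4a1 in wild type and 54.6% in Asxl1-/-, and 37.4% and 57.1% of Col4a2. H3K4me3 did not follow over Col4a2: 5 islands in wild type, 4 of them inside the gene and all inside ASXL1 islands, compared with the single start island in Asxl1-/-. The share of Col4a2 under H3K4me3 was 10.5% and 3.66%. The wider H3K4me2 at this pair went against its surroundings, where covered length in Asxl1-/- relative to wild type was 0.798 around Col4a1 and 0.824 around Col4a2.

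**Figure D2:**
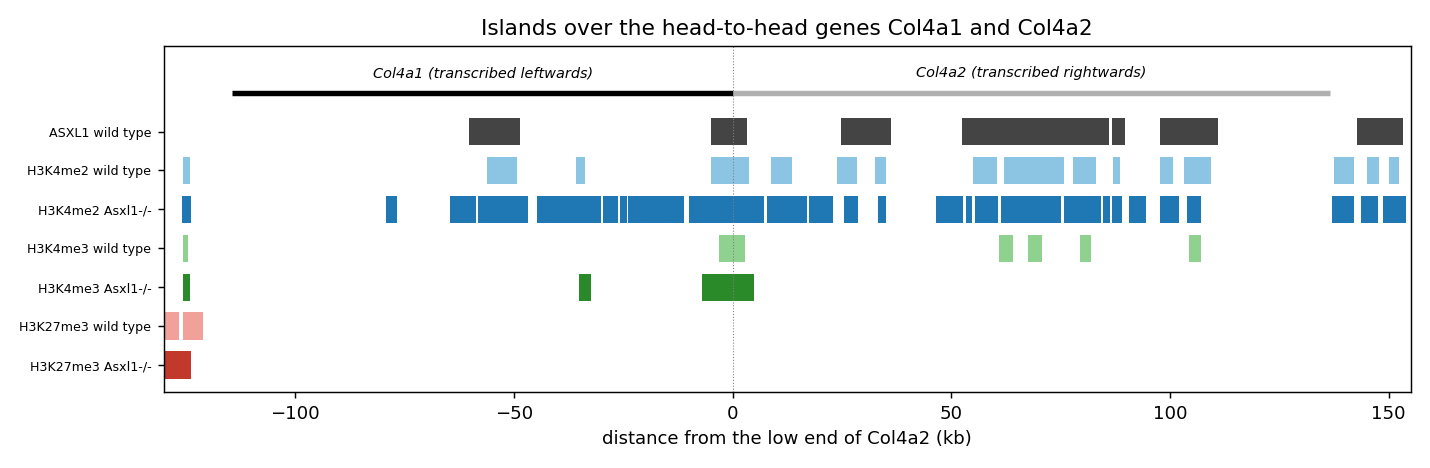
Islands over Col4a1 (black bar) and Col4a2 (grey bar), by distance in kb from the low end of Col4a2; each row is 1 library and each block 1 island. The H3K4me2 row of Asxl1-/- is filled over much of both genes, and the inner H3K4me3 blocks of wild-type Col4a2 are missing from Asxl1-/-.

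Col4a3 and Col4a4, whose chains belong to the kidney filter and a few other membranes, also overlap at their ends, by 113 bp. They shared an H3K4me2 island of 1.8 kb in both genotypes and had neither H3K4me3 nor ASXL1. They also shared an H3K27me3 island there, of 8.0 kb in wild type against 10.0 kb in Asxl1-/-. At the other end of Col4a3 an H3K27me3 island of 12.4 kb was called in wild type, and the nearest island of Asxl1-/- stopped 4259 bp short of that end. Of the Col4a3 body, H3K27me3 covered 20.7% in wild type and 36.9% in Asxl1-/-. For Col4a4 the shares were 25.9% and 40.3%. In these 2 pairs, then, the widely used chains carried ASXL1 with H3K4me3, and the tissue-restricted chains carried H3K27me3.

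Col15a1 and Col18a1 code for related basement membrane collagens that also carry sugar chains. Col15a1 was the only basement membrane gene that lost or gained a mark, counting its ends together. An H3K4me3 island of 1.4 kb (chr4:47207801-47209200) lay at its start in Asxl1-/- only. H3K27me3 at the start was 33.0 kb in wild type against 8.4 kb in Asxl1-/-, and the share of the body covered was 64.2% and 5.64%. The ASXL1 island of 9.0 kb lay at the far side, where H3K4me2 was 8.0 kb in wild type and did not reach the end in Asxl1-/-. The H3K27me3 flanks of Col15a1 gave 0.445. Col18a1 went the other way for H3K27me3, with 2.4 kb and 9.6 kb at the start and 1.16% and 36% of the body, on chromosome 10. Its H3K4me3 at the start was 1.8 kb and 3.0 kb and its H3K4me2 2.8 kb and 4.6 kb.

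**Figure D3:**
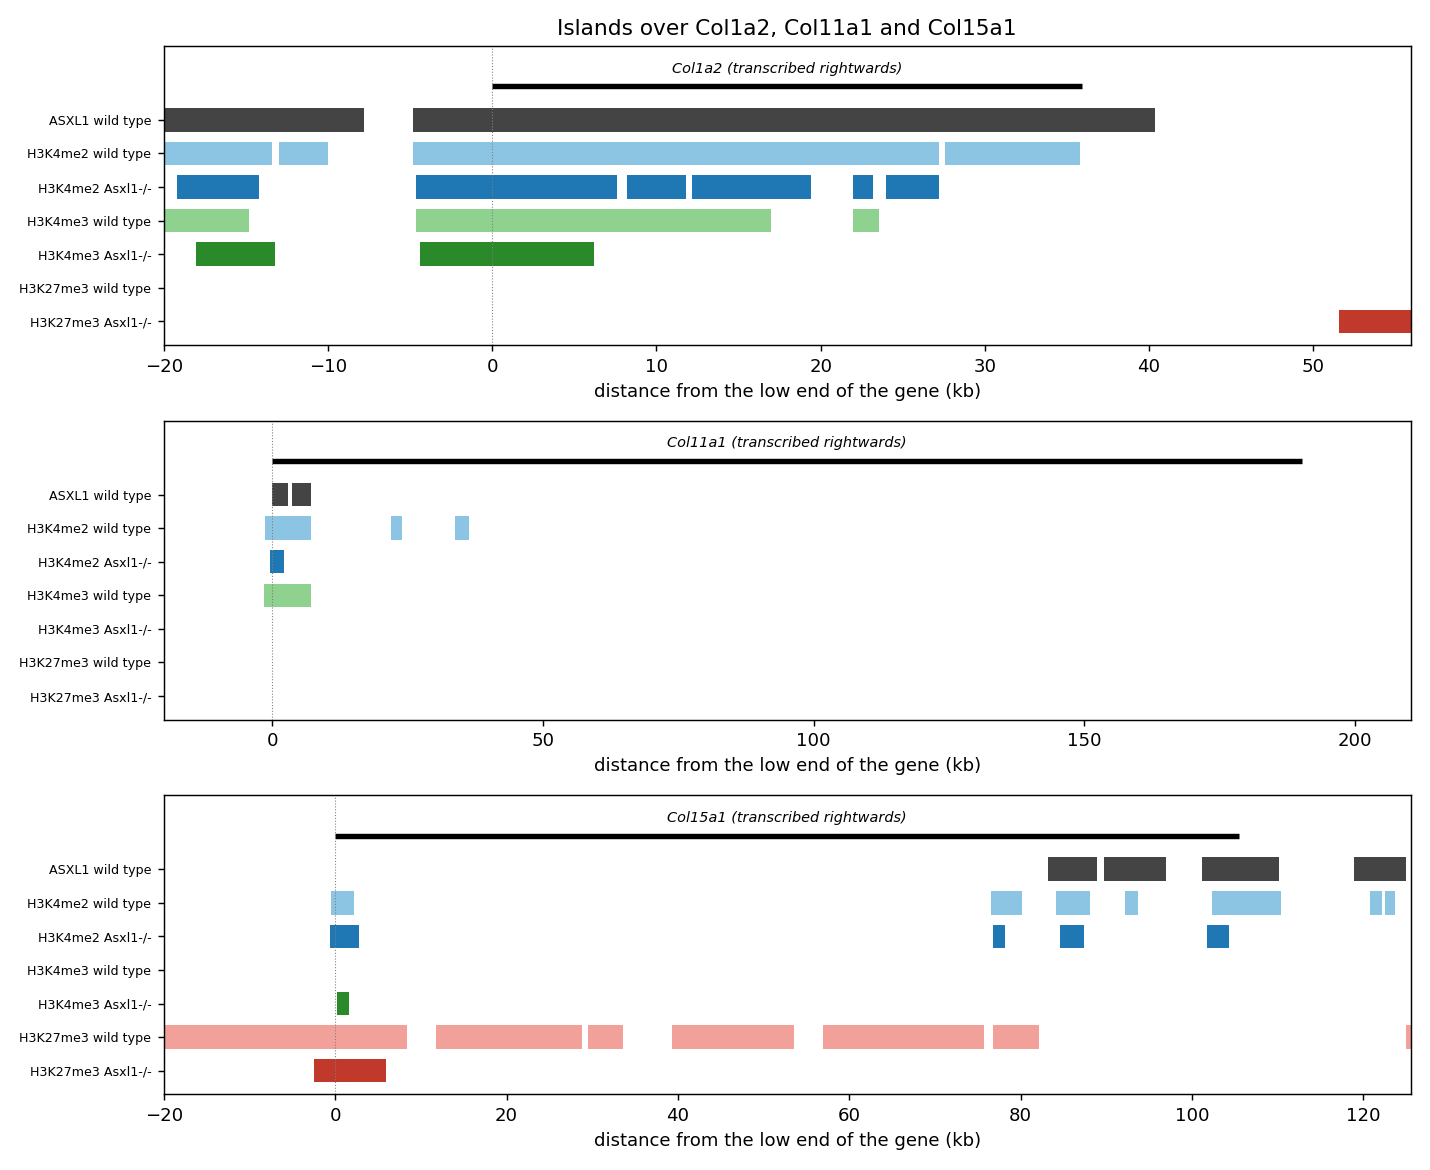
Islands over Col1a2, Col11a1 and Col15a1, by distance in kb from the low end of each gene; rows are libraries, blocks are islands and the black bar is the gene. Blocks at Col1a2 are shorter in Asxl1-/- for both H3K4 marks, the H3K4me3 block of Col11a1 is present in wild type only, and the H3K27me3 blocks of Col15a1 shrink to 1 at the start.

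Type VI collagen forms microfibrils, and its usual molecule joins the products of Col6a1, Col6a2 and Col6a3. These 3 genes had ASXL1 at an end in wild type, and H3K4me2 and H3K4me3 in both genotypes. Col6a4, Col6a5 and Col6a6, whose chains can take the place of the Col6a3 product, had neither ASXL1 nor H3K4me3. Of these, Col6a4 and Col6a6 had H3K27me3 in both genotypes (6.2 kb and 5.4 kb at Col6a4, 4.4 kb and 5.8 kb at Col6a6). Col6a5 had an H3K4me2 island of 2.0 kb in Asxl1-/- only.

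Col6a1 had no H3K27me3 at either end in wild type and gained it in Asxl1-/-, the only member to do so. The island was 15.4 kb wide (chr10:76696001-76711400), lay at the far side of the gene, overlapped no wild-type H3K27me3, and shared 13.4 kb with a 19.8 kb ASXL1 island of wild type. At the start of Col6a1 the widths were alike in both genotypes, 15.0 kb and 14.8 kb for H3K4me2 and 7.2 kb and 7.4 kb for H3K4me3, over an ASXL1 island of 17.6 kb. At Col6a2 a second H3K27me3 island, of 13.8 kb (chr10:76624001-76637800), was called in Asxl1-/- only and shared 13.0 kb with ASXL1-bound DNA. It lay outside the gene, before the start but within 1000 bp of it. In wild type the H3K27me3 of Col6a2 lay at the far side alone, with 19.6 kb, where Asxl1-/- had 16.6 kb. At its start Col6a2 had ASXL1 of 9.8 kb, H3K4me2 of 6.2 kb and 6.8 kb, and H3K4me3 of 4.8 kb and 5.0 kb. Both genes lie on chromosome 10, and their H3K27me3 flanks gave 1.71 and 1.72. Col6a3 (ASXL1 13.0 kb) had no H3K27me3, and its H3K4me3 was 6.8 kb in wild type against 11.4 kb in Asxl1-/-. Its H3K4me2 was 11.8 kb and 13.2 kb.

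The 9 FACIT genes also differed among themselves. Col16a1 and Col12a1, which are the 2 of them with ASXL1, had no H3K27me3. Col16a1 had ASXL1 of 8.4 kb, H3K4me2 of 9.4 kb and 10.0 kb, and H3K4me3 of 4.4 kb and 7.0 kb. Col12a1, a companion of type I fibrils, counted as a gain of H3K4me3 by its edge alone: a 6.4 kb island of Asxl1-/- ended 541 bp from the gene end, and a 6.0 kb island of wild type ended 1541 bp from it. The wild-type list covered 84.4% of the Asxl1-/- island. ASXL1 there was 6.8 kb, and H3K4me2 was 6.8 kb and 7.4 kb.

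Col9a1, Col9a2 and Col9a3 code for type IX collagen, which coats cartilage fibrils. All 3 had H3K27me3 in wild type and narrower or no H3K27me3 at their ends in Asxl1-/-. The widths were 19.4 kb and 11.8 kb at Col9a1, 23.0 kb and 3.8 kb at Col9a2, and 11.8 kb and none at Col9a3. An H3K4me3 island of 0.8 kb (chr4:121039401-121040200) lay at the start of Col9a2 in Asxl1-/- only, inside H3K4me2 of 1.4 kb and 1.8 kb. Col9a3 gained an H3K4me2 island of 1.2 kb. Of its 3 wild-type H3K27me3 islands, those of 6.4 kb at the low end and of 15.0 kb inside the gene had no counterpart in Asxl1-/-. For the 11.8 kb island, next to Tcfl5, 52.5% was still covered, all beyond the gene. H3K27me3 flanks gave 1.37 for Col9a1, 0.522 for Col9a2 and 1.11 for Col9a3, and their whole chromosomes 1.34, 0.619 and 0.815. Over its body Col9a1 had more H3K27me3 in Asxl1-/-, 18.6% against 1.35%.

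Col19a1 gained an H3K4me3 island of 1.8 kb at its start (chr1:24586001-24587800), under H3K27me3 of 18.6 kb in wild type against 11.6 kb in Asxl1-/-. H3K4me2 at Col19a1 was 1.8 kb and 3.0 kb. Col20a1 lay under the widest H3K27me3 island of the family, 179.2 kb in wild type (chr2:180990601-181169800). That island began inside the gene and covered 78.7% of it. In Asxl1-/- no H3K27me3 touched Col20a1, although 83.4% of the wild-type domain was still covered, all of it beyond the gene. Col14a1 had both H3K4me3 (2.6 kb and 3.0 kb) and H3K27me3 (6.0 kb and 3.4 kb) in both genotypes, with H3K4me2 of 3.6 kb and 3.8 kb.

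Of the network-forming genes, Col8a1 and Col8a2 code for type VIII collagen of vessel walls and the cornea. Col8a1 had ASXL1 of 8.6 kb, H3K4me2 of 9.6 kb and 9.2 kb, H3K4me3 of 5.4 kb and 7.0 kb and no H3K27me3. Col8a2 had H3K27me3 of 8.6 kb and 6.2 kb and lost its H3K4me3 island of 1.8 kb at the start (chr4:126286001-126287800). With a window of 2500 bp Col8a2 counted as keeping H3K4me3. H3K4me2 at the start of Col8a2 was 4.4 kb in wild type against 1.6 kb in Asxl1-/-. The chains of type VIII collagen thus had different marks. Col10a1, the marker gene of hypertrophic cartilage, had a single island, H3K4me2 of 1.2 kb at its start in Asxl1-/-.

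Of the transmembrane genes, Col13a1 had H3K27me3 of 46.0 kb in wild type against 104.2 kb in Asxl1-/-, with 83% and 98% of its body covered, and H3K4me2 of 1.6 kb and 3.8 kb. Col23a1 had H3K4me3 of 1.8 kb and 3.4 kb at its start beside H3K27me3 of 8.2 kb and 17.2 kb. The ASXL1 island of 7.2 kb and the wider H3K4me3 counted for Col23a1 (5.6 kb and 6.8 kb) lay at its far side, 729 bp from Phykpl. Its H3K4me2 at that side was 5.4 kb and 6.6 kb. Col25a1 lost H3K4me3 of 2.4 kb at its start (chr3:130179801-130182200), where H3K27me3 was 8.4 kb and 4.0 kb and H3K4me2 2.4 kb and 1.8 kb. The flanks of Col25a1 gave 0.515 for H3K4me2, 0.738 for H3K4me3 and 0.0681 for H3K27me3. Col17a1, a gene of skin hemidesmosomes, had no island at its ends, but H3K27me3 covered 66.5% of its body in Asxl1-/- and none in wild type.

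Col26a1 lost H3K4me3 of 2.6 kb (chr5:136881001-136883600) inside H3K27me3 of 75.8 kb and 66.0 kb, with H3K4me2 of 2.4 kb and 2.8 kb. Col7a1, which codes for the anchoring fibrils of skin, had no H3K4me3 or H3K27me3. Its H3K4me2 counted as kept although a 2.8 kb island at the start was in wild type only, since another of 9.6 kb reached the far side in Asxl1-/-. ASXL1 of 4.0 kb also lay at that side of Col7a1, 1288 bp from Ucn2.

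Across the family, 15 of 42 genes (35.7%) differed between the genotypes in at least 1 mark at an end, against 18.3% of all genes. Of the 15, 3 were fibrillar, 1 was a basement membrane gene and 11 were other collagens, and Col9a3 and Col24a1 differed in more than 1 mark. H3K4me3 was lost at 5 of 23 marked genes (21.7%, against 4.18% of all marked genes) and gained at 4 of 19 unmarked genes (21.1%, against 5.63%). The gains include Col12a1, called by its edge alone and not a gain with a window of 500 bp or 2500 bp. For H3K4me2, 1 of 32 was lost (3.12%, against 2.99%) and 3 of 10 were gained (30%, against 8.46%). H3K27me3 was lost at 4 of 22 (18.2%, against 25.8%) and gained at 1 of 20 (5%, against 5.6%), shares near or below those of all genes. With so few genes, each call moves these shares by several percentage points. On the 11 autosomes whose H3K4me3 cover was closest to the median ratio, an alternative chosen after seeing the data, 2 of 12 marked members lost H3K4me3 (Col8a2 and Col26a1; 4.53% of all marked genes there did). On them 3 of 11 unmarked members gained it (Col19a1, Col15a1 and Col9a2), against 4.82% of all genes. The 3 losses that drop out are those of chromosome 3.

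H3K4me3 calls differed mainly at genes that also carried H3K27me3. Of 22 members with H3K27me3 in wild type, 7 lost or gained H3K4me3 (31.8%). Of 20 without it, 2 did (10%): Col11a1 and, by its edge alone, Col12a1. The shares over all genes were 10.4% and 2.63%, so the same order is seen without the collagens being singled out. Of 16 members with H3K4me3 and ASXL1 at an end, 1 lost H3K4me3 (6.25%). Of 7 with H3K4me3 and no ASXL1 at an end, 4 did (57.1%). All genes gave 1.45% and 17.7%. ASXL1 away from the ends is not counted here: it covered 7.0 kb inside Col24a1 and 2.4 kb inside Col8a2, which lost H3K4me3. It also covered 3.2 kb inside Col18a1, which kept H3K4me3. The 4 losses without ASXL1 at an end are also among the 7 differences at members with H3K27me3. At these genes the lack of ASXL1 at an end and the presence of H3K27me3 cannot be told apart. H3K4me3 and H3K27me3 were both at ends of 10 members in each genotype (23.8%, against 14.2% of all genes in wild type and 11.2% in Asxl1-/-), but only 6 of the 10 were the same genes: Col6a2, Col18a1, Col23a1, Col14a1, Col2a1 and Col27a1. The other 4 of wild type (Col24a1, Col25a1, Col8a2 and Col26a1) lost H3K4me3. Those of Asxl1-/- were Col19a1, Col15a1, Col9a2 and Col6a1. Each mark counts here at either end, so the 2 need not overlap. At Col6a2 in wild type and Col6a1 in Asxl1-/-, H3K4me3 lay at the start and H3K27me3 at the far side.

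At their ends, 11 of 42 genes (26.2%) had ASXL1, kept both H3K4 marks and had no H3K27me3 in either genotype. They were Col1a1, Col1a2, Col3a1, Col5a1, Col5a2, Col5a3, Col4a1, Col4a2, Col6a3, Col8a1 and Col16a1. The same count was not made over all genes, so this set is not read as particular to collagens. At members that kept H3K4me3, the widest island was wider in Asxl1-/- at 15 of 18 (83.3%), the exceptions being Col3a1, Col27a1 and Col1a2. Over all genes that kept it the share was 62.8%. ASXL1 islands at collagen ends had a median width of 8.6 kb, against 5.2 kb at all marked genes.

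Over gene bodies, H3K27me3 covered a median of 3% of a collagen gene in wild type and 0.844% in Asxl1-/-, against 0 for all genes in both. H3K4me3 covered 1.1% and 1.07%, against 4.36% and 4.35% for all genes, which are shorter. H3K4me2 covered 6.52% and 7.7% (8.97% and 8.01% for all genes), and ASXL1 1.81% (2.39%). By class, the H3K4me2 median was 19% in wild type and 14.2% in Asxl1-/- for fibrillar genes, 13% and 20.7% for basement membrane genes and 1.54% and 4.32% for the others. H3K4me2 covered less of the gene in Asxl1-/- at 8 of 11 fibrillar genes and more at 14 of the 25 others. Over all genes it was lower at 7239, higher at 5562 and equal at 7860. Summed over the 42 genes, covered length was 390.8 kb and 464.7 kb for H3K4me2, 135.1 kb and 127 kb for H3K4me3, and 833.2 kb and 972.5 kb for H3K27me3.

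**Figure D4:**
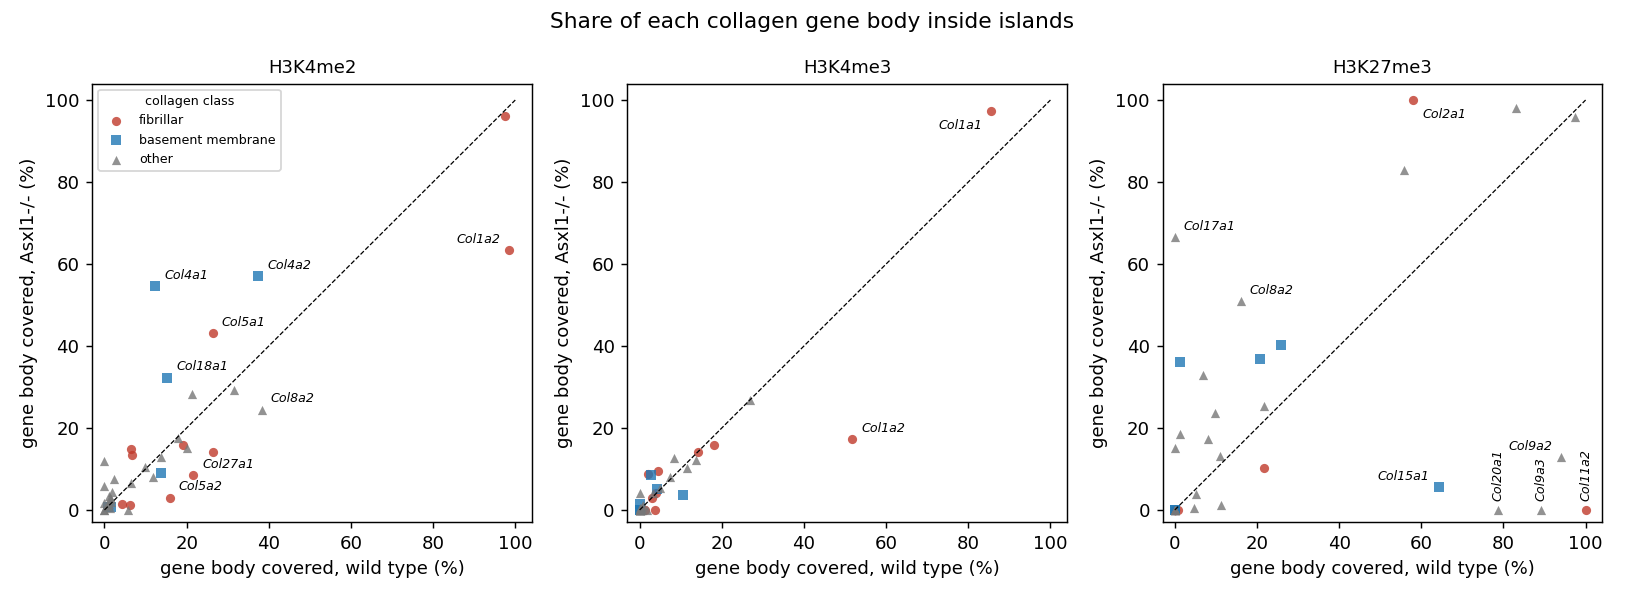
Share of each gene body inside islands (%), wild type on the horizontal axis and Asxl1-/- on the vertical axis, for the 3 marks; points are the 42 genes, shape and colour give the class, and the dashed line marks equal shares. Col4a1, Col4a2 and Col5a1 lie above the line for H3K4me2, Col1a2 lies below it for both H3K4 marks, and H3K27me3 points lie far off the line on both sides.

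The largest differences over bodies were those of H3K27me3, and they went both ways. Col11a2 (100% and 0%), Col9a3 (89.2% and 0%), Col9a2 (94.1% and 12.9%), Col20a1 (78.7% and 0%) and Col15a1 were covered less in Asxl1-/-. Col17a1, Col2a1, Col8a2 (16% and 50.9%), Col18a1 and Col23a1 (55.8% and 83%) were covered more. Col26a1 stayed almost wholly covered, at 97.5% and 95.9%. Of the genes with no island at an end, Col22a1, a collagen of tissue junctions, had 9.74% and 23.7% of its body under H3K27me3, and Col28a1 had none, with 1.12% and 3.46% under H3K4me2.

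Inside the genes, away from the ends, islands of H3K4me2 without H3K4me3 were counted. The same count was not made over all genes, and collagen genes are long, so the numbers describe these members only. Wild type had 65 such islands in 27 members, 23 of them over an ASXL1 island. Asxl1-/- had 72 in 19 members, and 37 of these overlapped H3K4me2 of wild type. Col4a2 had 6 in wild type, 5 of them over ASXL1, and 14 in Asxl1-/-, 11 of them over ASXL1-bound DNA. Its H3K4me2 islands that touch inner H3K4me3, which only wild type had, are left out of the 6. All H3K4me2 islands over Col4a2, with or without H3K4me3, numbered 10 in wild type and 15 in Asxl1-/-. In the count without H3K4me3, Col27a1 went from 9 to 3, and Col14a1 from 2 to 7. At Col1a2 the 4 inner islands of Asxl1-/- all lay where wild type had the single wide island, so a broken island also adds to this count. ASXL1 covered 47.2% of Col4a2, 28.2% of Col5a3, 95.4% of Col6a1, 91.4% of Col1a1 and 100% of Col1a2.

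For H3K27me3, the direction over a body mostly matched that of the DNA around it. H3K27me3 cover of the body and of the 5 Mb on each side moved in the same direction for 21 of 26 genes with a difference. The 5 that went against their flanks were Col17a1, Col19a1, Col20a1, Col8a2 and Col9a3. For H3K4me2 the count was lower, 22 of 38, and for H3K4me3 15 of 25. The same counts were not made over all genes, so none is read as particular to collagens. Neighbouring members share flanks, so these genes are not independent.

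**Figure D5:**
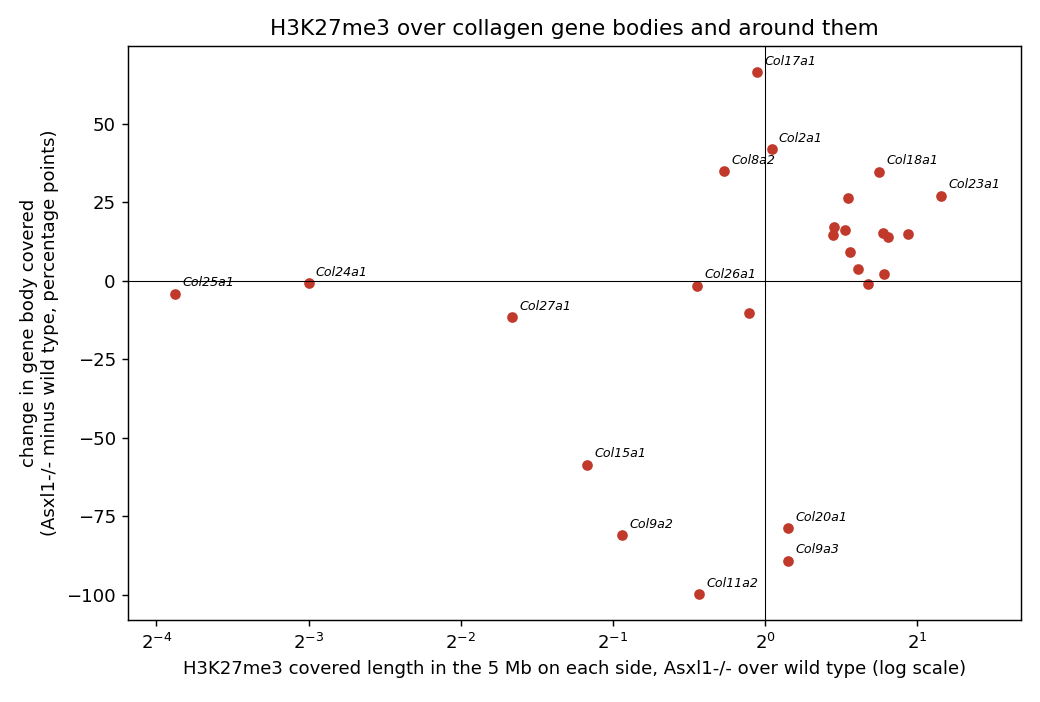
Difference in H3K27me3 cover of the gene body (Asxl1-/- minus wild type, percentage points) against the ratio of H3K27me3 covered length in the 5 Mb on each side (log scale), for the 26 collagen genes with a difference; genes far from the centre are named. Most points lie in the lower left or upper right, and Col17a1, Col8a2, Col20a1, Col9a3 and, close to 0, Col19a1 do not.

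The promoters of the family were richer in G and C but poorer in CpG than those of other genes. Over 300 bases, the 33 members with a sequence had a median GC content of 60% and a ratio of observed to expected CpG of 0.47, against 56.7% and 0.60 for all genes in the table. The ratio was 0.64 for the 7 genes with H3K4me3 and H3K27me3 in wild type, 0.54 for the 11 with H3K4me3 alone, 0.42 for the 10 with H3K27me3 alone and 0.37 for the 5 with neither. Motifs were sought on both strands. GGGCGG, the GC box, was in 20 of 33 (60.6%, against 47.3% of all promoters), CCAAT in 11 (33.3%, against 39.1%), TATAAA in 5 (15.2%, against 13.5%) and TGANTCA, the AP-1 site, in 1 (3.03%, against 7.12%), that of Col6a1. Overlapping copies of GGGCGG occur in the Col8a2 sequence printed above. Col4a1 had the highest CpG ratio, 0.90, and Col3a1 had 0.00 although both carried ASXL1 and H3K4me3 at the start. Bare matches of this kind say nothing of which factor binds.

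The genes that make and crosslink collagen were described in the same way. All 29 genes of the list for synthesis and crosslinking (prolyl and lysyl hydroxylases, chaperones such as Serpinh1, propeptide proteases and lysyl oxidases) were found, and 23 had ASXL1. H3K4me2 and H3K4me3 were each kept at 27 of them, with no loss and no gain, beside losses of 2.99% and 4.18% over all genes. Among 27 genes, no loss is close to those shares and is not read as particular to this list. H3K27me3 was kept at 7 and, beside 5.6% of all unmarked genes, gained at 2 of 22 unmarked ones: Bmp1, the procollagen C-proteinase (11 kb), and Loxl4, a lysyl oxidase (5.6 kb). Both genes have a neighbouring gene end within 2000 bp. H3K27me3 cover in Asxl1-/- relative to wild type was 2.04 on chromosome 14, which holds Bmp1, and 1.05 on chromosome 19, which holds Loxl4. Of 10 collagen receptor genes, 6 had ASXL1 and 7 kept H3K4me3. Itga10, an integrin chain gene of chromosome 3, lost H3K4me3 of 3.2 kb, at an end next to another gene. H3K27me3 was lost at 4 of 5 marked receptor genes, beside 25.8% of all marked genes: Itga1 (7.2 kb) and Itga2 (10.4 kb), neighbours on chromosome 13, and Lair1 (5.0 kb) and Gp6 (5.8 kb) on chromosome 7. H3K27me3 cover in Asxl1-/- relative to wild type was 0.491 on chromosome 13 and 0.736 on chromosome 7. Itga11 kept it with 2.6 kb in wild type against 8.0 kb in Asxl1-/-.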

How the data were processed

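Per the submitters' processing notes, BWA placed the reads on mm10 and SICER 1.1 called the islands. Not given in the sources used here were the version of BWA and the settings, control and error limit of the calls. The authors' deposited lists hold island positions only (chromosome, start and end), so no signal could be compared. Positions lie on a grid of 200 bp, and the smallest gap between islands was 400 bp for the H3K4 marks and 800 bp for ASXL1 and H3K27me3, so a gap may split or join islands.

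Gene positions came from a RefSeq table of GRCm38.p6, which has no strand or exons, so exons and introns were not assigned; strand and start came from RefSeq promoter records for 33 members. An island counted at a gene when it lay within 1000 bp of either end (1 bp overlap). Lost means called in wild type only, gained in Asxl1-/- only, and a width is that of the whole island. All members and the collagen receptor, synthesis and marker lists were chosen with earlier results of these data known. Named genes are the members; values in every library are given for those with a changed mark, with ASXL1, or with the widest islands. Sequences were picked from members with loss or gain of an H3K4me3 island at the start, except the added pair Col1a2 and Col3a1. Col15a1, Col19a1 and Col25a1 also had such a loss or gain and are not printed. Overlaps were computed in Python 3.11.15 with pandas 2.3.3 and checked with bedtools 2.31.1 and on simulated islands. With 1 library per group no test was made, and no depth or counting error can be given. The alternatives are listed in the closing section.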

Additional observations from a re-analysis of the deposited data

How the results depend on the processing

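Of 76 alternative values, 55 were counts within 1.5 times the main count or medians equal to the main median, and 21 were not. The cause was not tested beyond what each setting removes. A 2500 bp window gave 2 H3K27me3 gains (1 at 1000 bp), the second at Col17a1, and the H3K4me3 gain of Col12a1 and the H3K4me3 loss of Col8a2 both became kept. Annotated starts alone (33 members) gave 2 H3K4me2 losses and 2 H3K27me3 losses, and the 1 gain of H3K27me3 was then at Col6a2, not Col6a1. Islands at or above the median width of each list gave 2 losses and 5 gains of H3K4me2, 2 losses and 2 gains of H3K4me3 and 4 gains of H3K27me3. Without members that have a neighbouring gene end within 2000 bp (30 left), H3K27me3 lay at 14 in wild type and was lost at 1. Autosomes near the median ratio, added after seeing the data, gave 0 losses and 1 gain of H3K4me2 among 21 members and 2 losses of H3K4me3 among 23. For H3K27me3 only 2 autosomes were near the median, too few to use. Bodies without their ends had medians of 5.07% in wild type and 7.18% in Asxl1-/- for H3K4me2, 0.305% and 0.32% for H3K4me3, and 2.32% and 0.494% for H3K27me3. Lists of equal length gave 0.734% for wild-type H3K4me3. With collagen IV chains alone, 0 basement membrane genes had a changed mark. No paired analysis was possible because each group is 1 library. Island lists carry no depth, so a missing island may differ little in signal from a called one.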

Other observations

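The 2 collagen genes of the X chromosome, Col4a5 and Col4a6, lie head to head like the other collagen IV genes and code for chains of specialised basement membranes. Their shared H3K4me2 island was 4.8 kb in wild type against 4.2 kb in Asxl1-/-, and H3K4me3 was 4.4 kb and 2.6 kb. ASXL1 was listed at neither gene. No H3K27me3 lay over Col4a6 in wild type, whereas 12 islands covered 30.1% of it in Asxl1-/-, the one at an end being 12.8 kb wide. Over Col4a5 no H3K27me3 was listed in either genotype. Cover of the whole X chromosome and of the DNA around these genes was not compared between the genotypes. Whether the difference at Col4a6 is particular to that gene was therefore not tested.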
